A study of Mus musculus with 12 samples.

Results

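The 4 genes Nfia, Nfib, Nfic and Nfix encode the nuclear factor I transcription factors of the mouse. The data examined are the chromatin immunoprecipitation sequencing (ChIP-seq) peaks of 3 histone marks that lie in 4 fixed windows around these genes. Coordinates are of the mm9 build and 1-based. The windows were chr8:87220000-87330000 for Nfix, chr10:80850000-80925000 for Nfic, chr4:97430000-97790000 for Nfia and chr4:81930000-82160000 for Nfib. A peak was a member if it overlapped a window by at least 1 bp, and 226 of the 134900 peaks in the 6 deposited lists did so: 125 in the Nfix window, 59 in the Nfic window, 15 in the Nfia window and 27 in the Nfib window. The family was selected on readout, because Nfix and Nfic hold some of the widest peaks of monomethylated lysine 4 of histone H3 (H3K4me1) in these same lists. The amount and width of H3K4me1 there and its S2101 to vehicle ratio are therefore described and support nothing. The same holds for its overlap between treatments and with the other marks.

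The cells were C2C12, a mouse myoblast line that stops dividing and fuses into myotubes when serum is withdrawn. Both groups were kept for 48 h, to day 2, in differentiation medium with horse serum, which held either vehicle or 10 µM of S2101, an inhibitor of the histone demethylase LSD1. Formaldehyde-fixed chromatin was pulled down with 1 antibody per mark, the same in both groups. One group is the vehicle group and the other the S2101 group, and each gave 1 library per mark. H3K4me1 and the dimethylated form (H3K4me2) were from experiment 1 and the trimethylated form (H3K4me3) from experiment 2, so mark and experiment cannot be told apart. No value below has a replicate, no difference between treatments was tested, and the read depth of the libraries is unknown.

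Nuclear factor I proteins bind DNA as dimers at a palindrome with the half-site TTGGC and can activate or repress transcription. Nfix is known in muscle for the switch from embryonic to fetal myogenesis and for a part in regeneration. Nfia and Nfib are known for roles in brain development, Nfib also for one in lung development, and Nfic for tooth root formation. Active promoters carry H3K4me3, enhancers and the flanks of promoters mostly carry H3K4me1, and H3K4me2 occurs at both. LSD1 removes methyl groups from mono- and dimethylated lysine 4 and does not act on the trimethylated form.

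The windows are not the same as the genes. In the RefSeq gene table at hand, which is of build GRCm38, the Nfix model is 96.5 kb long against a window of 110.0 kb, Nfib is 217 kb against 230.0 kb, and Nfic is 35.7 kb against 75 kb. The Nfia model is 541 kb long, 181 kb longer than its window, so part of that model lies outside. The nearest protein-coding neighbours in this table are Lyl1 and Dand5 for Nfix, Smim24 and Celf5 for Nfic, and Mpdz and Zdhhc21 for Nfib. Since the builds differ, no peak was assigned to an exon, an intron or a promoter.

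RefSeq promoters (build GRCm38) were at hand for 3 of the 4 genes, as 6 entries: 1 for Nfia, 1 for Nfic and 4 for Nfix, all 4 of them on the minus strand and within 7.21 kb of each other. They are shown for the contrast between starts of the family, since CpG-rich promoters commonly carry H3K4me3. The 250 bases before 3 of these starts are printed 5′ to 3′, with CpG dinucleotides in capitals. They are the Nfic start (chr10:81427174-81427423, minus strand), the Nfix start with the most CpGs (chr8:84780083-84780332, minus strand) and the one with the fewest (chr8:84772876-84773125, minus strand).
Nfic: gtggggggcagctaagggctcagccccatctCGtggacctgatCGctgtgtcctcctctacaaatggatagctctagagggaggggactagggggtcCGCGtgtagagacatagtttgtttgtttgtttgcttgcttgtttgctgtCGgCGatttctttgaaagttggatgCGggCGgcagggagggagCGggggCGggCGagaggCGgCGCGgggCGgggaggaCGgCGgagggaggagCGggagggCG
Nfix, most CpGs: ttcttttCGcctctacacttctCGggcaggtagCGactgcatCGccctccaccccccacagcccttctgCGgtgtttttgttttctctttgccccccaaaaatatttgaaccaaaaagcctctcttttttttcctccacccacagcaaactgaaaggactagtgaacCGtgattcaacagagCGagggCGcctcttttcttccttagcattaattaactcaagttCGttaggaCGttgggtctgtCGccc
Nfix, fewest CpGs: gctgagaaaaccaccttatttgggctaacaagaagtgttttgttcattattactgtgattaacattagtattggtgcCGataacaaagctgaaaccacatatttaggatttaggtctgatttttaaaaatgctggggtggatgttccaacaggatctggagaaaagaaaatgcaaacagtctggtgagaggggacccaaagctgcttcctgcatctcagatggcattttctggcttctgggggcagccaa
The Nfic stretch holds 19 CpGs, more than 80.3% of the 32851 promoters in the table. The 4 Nfix stretches hold 11, 7, 4 and 1 CpGs, and the Nfia stretch holds 1, where the median over all promoters is 6.0 (quartiles 2.0 and 16.0). The half-site TTGGC, searched on both strands, occurs once in 2 of the 4 Nfix stretches and in neither the Nfic nor the Nfia stretch, and 41.5% of all promoters hold it. The E-box letters CANNTG, which read the same on both strands, occur in 66.2% of all promoters. They occur 4 times in the Nfia stretch, 1 time in the Nfic stretch, and 0, 0, 2 and 1 times in the Nfix stretches with 11, 7, 4 and 1 CpGs. These positions are of GRCm38 and cannot be laid over the mm9 peaks.

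H3K4me1 covered more of the Nfix window than either other mark. With vehicle, 41 peaks covered 70546 bp, which is 64.1% of the window, and with S2101 again 41 peaks covered 39893 bp, or 36.3%. In the Nfic window, 14 vehicle peaks covered 23402 bp (31.2%) and 17 S2101 peaks covered 15601 bp (20.8%). The Nfib window held 9 vehicle peaks over 4517 bp (1.96%) and 4 S2101 peaks over 1291 bp (0.561%). In the Nfia window, 3 vehicle peaks covered 1364 bp (0.379%), and the S2101 list had none. Nfix and Nfic, which were chosen for wide H3K4me1 peaks, had long H3K4me1 stretches, and Nfia and Nfib had a few short peaks. When the genome was cut into stretches of the length of the Nfix window, 1 stretch had more H3K4me1 than that window, with vehicle and likewise with S2101. For the Nfic window 28 stretches had more with vehicle and 10 with S2101. These ranks use the values the loci were chosen by. They also set a window placed on a locus beside stretches of a fixed grid, and support nothing.

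**Figure D1:**
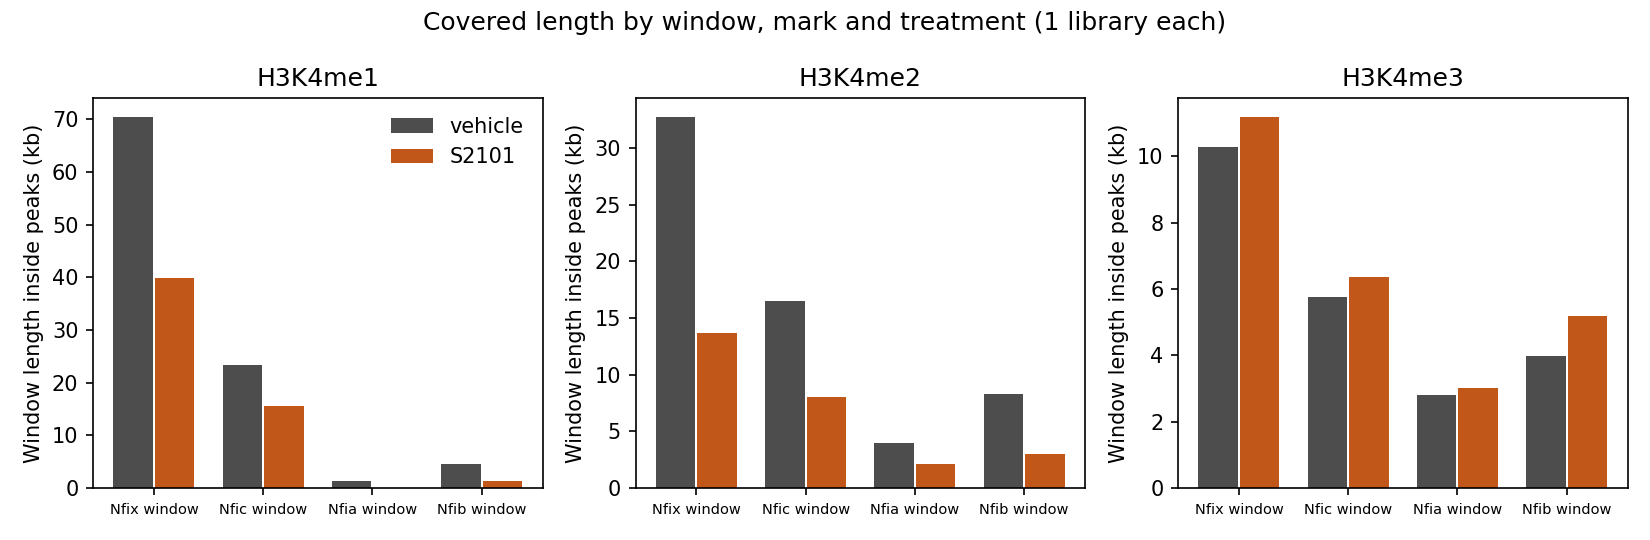
Length of each window inside peaks (kb) for H3K4me1, H3K4me2 and H3K4me3, with 1 bar per treatment and 1 library per bar. H3K4me1 and H3K4me2 bars are lower with S2101 in all 4 windows, and H3K4me3 bars are slightly higher.

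The S2101 to vehicle ratio of covered length was 0.565 for H3K4me1 in the Nfix window and 0.667 in the Nfic window. Over the whole lists it was 0.347, on chromosome 8 it was 0.371 and on chromosome 10 it was 0.37. Among the 3675 stretches of 100 kb with at least 2 kb of vehicle H3K4me1, the median ratio was 0.318 (quartiles 0.193 and 0.447). Of these stretches, 89.5% had a lower ratio than the Nfix window and 96.0% a lower ratio than the Nfic window. These positions describe loci chosen for wide H3K4me1 peaks, in windows of 110.0 kb (Nfix) and 75 kb (Nfic). In the whole list wider vehicle peaks had more of their bases inside S2101 peaks. With the longer list shortened by score to the length of the other, the ratios were 0.603 for Nfix, 0.719 for Nfic and 0.503 for the whole lists. The Nfib ratio was 0.286, and it was 0.982 with lists of equal length and 0.645 with peaks of score 200 or more only. Of its 9 vehicle peaks, 8 scored under 200. The Nfia window had a ratio of 0.0.

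Among the 67 vehicle H3K4me1 peaks of the 4 windows, 37 overlapped an S2101 H3K4me1 peak by at least 1 bp (55.2%, 95% Wilson interval 43.4 to 66.5%, for counting error only), and 30 did not. In the whole vehicle list 67.0% of peaks had no S2101 counterpart. By window, 27 of 41 had one at Nfix, 8 of 14 at Nfic, 2 of 9 at Nfib and 0 of 3 at Nfia. In the reverse direction 3 of 62 S2101 peaks had no vehicle counterpart, against 27.5% of the whole S2101 list. These were 1 peak at Nfix (87315927 to 87316267, 341 bp) and 2 at Nfib. The S2101 peaks at Nfix lay inside the vehicle peaks over 98.3% of their length, and those at Nfic over 96.1%, against 69.7% for the whole S2101 list. As Nfix and Nfic were chosen for wide H3K4me1, the shares in both directions are in part set by that choice. Nothing is read from them.

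The 30 vehicle-only H3K4me1 peaks had widths from 261 to 1113 bp with a median of 546.0 bp. Their scores ran from 102.99 to 311.83 with a median of 162.35. The medians of the whole vehicle list were 535.0 bp and 182, so these peaks were near the middle of that list. The score is the peak caller's own value for each peak, as the authors deposited it, and ranks peaks within a list only. The 37 peaks found again ran from 399 to 9225 bp with a median of 1779 bp. The windows were therefore set beside the whole list by width class. This does not undo the choice of loci for wide H3K4me1, and score was not held. No vehicle peak of 1000 bp or more lay at Nfia or Nfib. Nfix held 12 of the 16 peaks of 1000 bp to under 2000 bp. It also held all 8 of 2000 bp to under 4000 bp and 4 of the 6 wider ones. The values for these widths thus come mostly from neighbouring peaks of 1 chosen locus and support nothing. Of vehicle peaks of 1000 bp to under 2000 bp, 14 of 16 in the windows were found again (87.5%), against 73.0% of 4800 in the whole list, and the median share of a peak's bases inside S2101 peaks was 53.6% against 35.2%. For 2000 bp to under 4000 bp these medians were 57.7% over 8 peaks and 51.1% over 655, and for 4000 bp or more 74.1% over 6 peaks and 66.7% over 52. All 14 peaks of 2000 bp or more were found again, as were 97.3% of those under 4000 bp and 100% of the wider ones in the whole list. Below 1000 bp the windows were close to the list or under it: 3 of 15 peaks under 500 bp and 6 of 22 of 500 bp to under 1000 bp were found again, where the list had 16.0% and 36.5%.

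**Figure D2:**
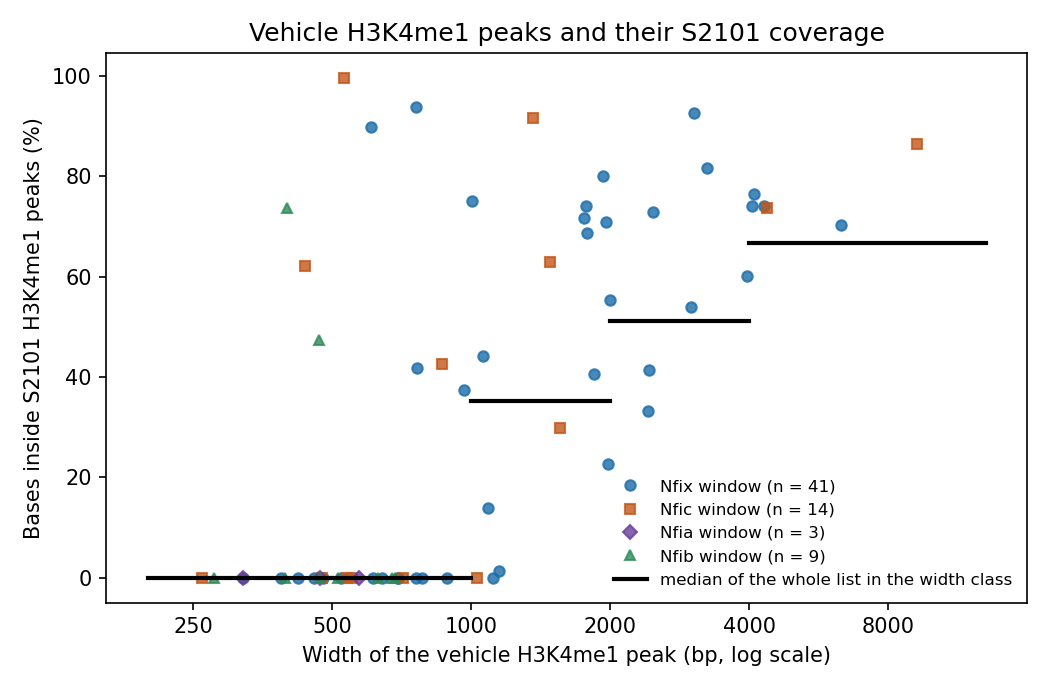
Each point is a vehicle H3K4me1 peak of 1 of the 4 windows, placed by its width (bp, log axis) and the percentage of its bases inside S2101 H3K4me1 peaks, and black lines are the medians of the whole vehicle list in each width class. All peaks of 2000 bp or more have S2101 coverage, and the points at 0% are at most 1113 bp wide.

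With vehicle, H3K4me1 at Nfix lay in long runs with few gaps. Peaks of a list no more than 1 kb apart were joined into runs to describe this. With vehicle, 15 peaks formed a run of 36.1 kb (87242558 to 87278691) with 97.1% of its bases inside peaks, and 12 peaks formed a second run of 23.8 kb (87298825 to 87322607, 93.4%). By length they were the second and the fourth of 26414 runs in that list. With S2101 the longest run in the window was 13.6 kb (87305287 to 87318867, 12 peaks, 71.4% inside peaks), the fourth of 14774. The first vehicle run was represented with S2101 by 7 separate runs between 87243301 and 87278115, of which the longest was 6.46 kb. Vehicle H3K4me1 at Nfix thus lay in 8 runs and S2101 H3K4me1 in 13. The longest stretch of the window without a peak of any list was 9343 bp (87223326 to 87232668), near the low-coordinate end.

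The widest vehicle H3K4me1 peak at Nfix, at 87245039 to 87251358, was 6320 bp wide, the ninth by width in the list. S2101 peaks covered 4446 bp of it, and one of them, at 87246118 to 87249873 (3756 bp), was the third by width in the S2101 list. Its neighbour at 87252022 to 87256336 (4315 bp) had 3197 bp covered with S2101. The other 3 of the 5 widest were at 87311642 to 87315746 (4105 bp, 3136 bp covered), 87305230 to 87309288 (4059 bp, 3007 bp covered) and 87259656 to 87263606 (3951 bp, 2374 bp covered). All 5 were covered with S2101 over more than 60% of their bases, by 2 to 4 peaks each. The next widest S2101 peaks were at 87253743 to 87256085 (2343 bp), 87264769 to 87267100 (2332 bp), 87301457 to 87303261 (1805 bp) and 87312061 to 87313844 (1784 bp), and all lay inside vehicle peaks. For the 16 pairs at Nfix with a single partner on both sides, the S2101 peak was narrower in 16 of 16. In the whole list it was narrower in 87.5% of 10293 such pairs. The median width ratio at Nfix was 0.613, close to the 0.606 of the whole list.

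The highest-scoring vehicle-only H3K4me1 peaks at Nfix were at 87263616 to 87264311 (696 bp, score 302.12), 87294593 to 87295479 (887 bp, score 300.6) and 87251365 to 87252007 (643 bp, score 271.24). The first and the last stood between wide vehicle peaks. The second lay at the edge of an H3K4me3 stretch, where vehicle H3K4me2 covered all 887 bp and S2101 H3K4me2 covered 21 bp.

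**Figure D3:**
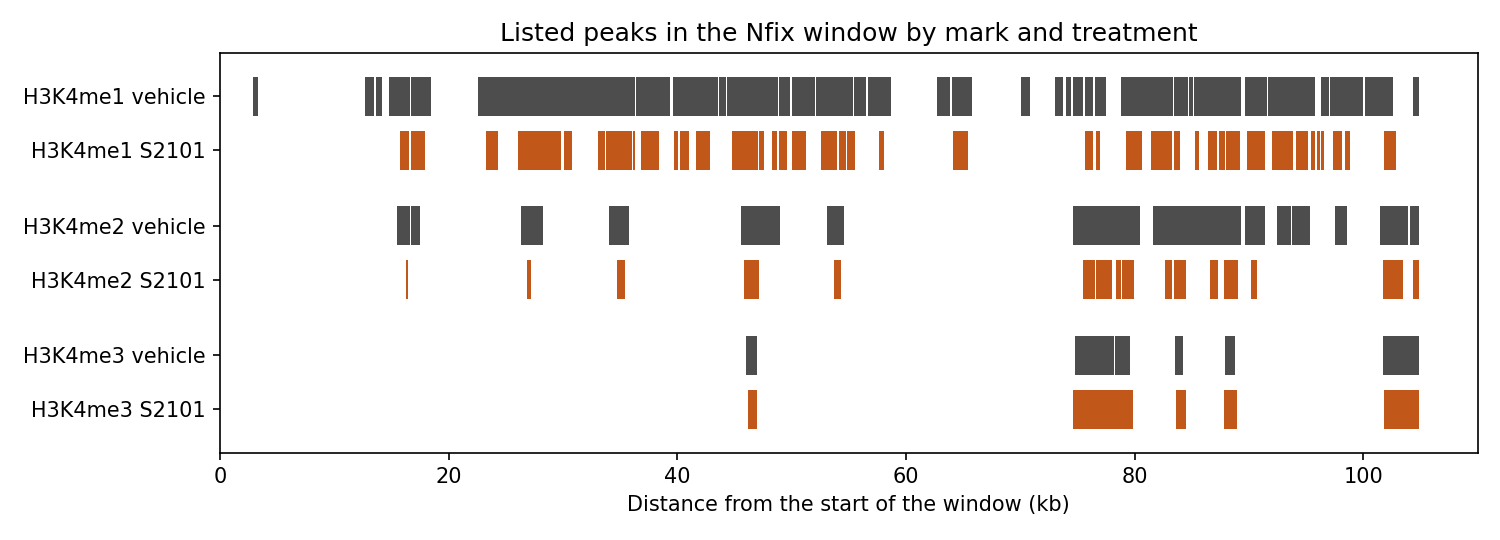
Peaks of the Nfix window drawn to scale by distance from the window's start (kb), with 1 lane per mark and treatment. Vehicle H3K4me1 forms 2 long runs, of 36.1 and 23.8 kb, that are broken into shorter pieces with S2101, while the 5 H3K4me3 stretches stand at the same places in both lanes.

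H3K4me3 stood at 5 places in the Nfix window with both treatments. These stretches had a length of 10280 bp (vehicle) and 11199 bp (S2101), a ratio of 1.09 where the whole lists gave 1.1. The stretch nearest to the window's end was a peak of 3160 bp with vehicle (87321721 to 87324880) and 3062 bp with S2101 (87321788 to 87324849), both at the score of 3100 where many deposited scores stop. As the RefSeq Nfix starts are on the minus strand, this is the side on which the gene begins. The widest stretch was split into 4 peaks with vehicle, at 87294813 to 87296500 (1688 bp), 87296535 to 87298222 (1688 bp), 87298314 to 87298872 (559 bp) and 87298879 to 87299577 (699 bp), with scores of 680.56, 970.47, 175.07 and 125.1. With S2101 it was a single peak of 5233 bp at 87294619 to 87299851, with a score of 2781.27. The bases inside peaks there numbered 4634 and 5233.

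The other 3 H3K4me3 stretches at Nfix were small. One, inside the first long H3K4me1 run, was 955 bp with vehicle (87266029 to 87266983) and 837 bp with S2101 (87266184 to 87267020). The next was 689 bp with vehicle (87303574 to 87304262) and 937 bp with S2101 (87303602 to 87304538). The last was 842 bp with vehicle (87307946 to 87308787) and 1130 bp with S2101 (87307799 to 87308928). H3K4me1 was listed over the same bases as H3K4me3 at all 5 places. At Nfix, 67.9% of the vehicle H3K4me3 length was also inside vehicle H3K4me1, against 9.0% over the whole lists, and with S2101 it was 44.8% against 1.98%. H3K4me1 covered 64.1% and 36.3% of the window as a whole, so these shares are in part set by the choice of the locus and nothing is read from them.

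H3K4me2 at Nfix covered 32765 bp in 14 vehicle peaks and 13653 bp in 16 S2101 peaks, a ratio of 0.417 against 0.467 over the whole lists. Of 8617 genome stretches of the window's length with a vehicle H3K4me2 peak, 5 had more, and of 7516 with an S2101 peak, 12 had more. At Nfix 89.1% of the vehicle H3K4me2 length lay inside vehicle H3K4me1. These ranks also set a window placed on a locus beside a fixed grid, and support nothing. The 2 widest vehicle H3K4me2 peaks each overlapped inner H3K4me3 stretches, at 87301654 to 87309303 (7650 bp) and 87294583 to 87300500 (5918 bp). With S2101 each was represented by 4 peaks, which covered 3638 and 4018 bp. The other wide vehicle peaks, at 87265561 to 87268966 (3406 bp), 87321453 to 87323898 (2446 bp) and 87246312 to 87248240 (1929 bp), were covered over 1381, 1748 and 323 bp. The first 2 of these lie on H3K4me3 and the last does not. The widest S2101 H3K4me2 peaks, at 87321735 to 87323482 (1748 bp), 87296601 to 87298020 (1420 bp), 87265809 to 87267189 (1381 bp), 87307840 to 87309082 (1243 bp) and 87303454 to 87304512 (1059 bp), all overlapped H3K4me3.

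The Nfic window held a second block of wide H3K4me1. A vehicle peak of 9225 bp at 80870465 to 80879689, the second by width in the list, lay in a run of 17.6 kb (80869874 to 80887492, 5 peaks). S2101 kept a run of nearly the same length, 16.0 kb (80869876 to 80885915), in 12 peaks and with 76.9% of its bases inside peaks against 93.1% with vehicle. By length these were the 12th of 26414 vehicle runs and the third of 14774 S2101 runs. The widest peak was covered over 7971 bp (86.4%) by 8 S2101 peaks, and one of them, at 80873707 to 80876843 (3137 bp), was the fifth by width in the S2101 list. The vehicle peak at 80881505 to 80885876 (4372 bp) was covered over 3217 bp. Those at 80879931 to 80881489 (1559 bp), 80914785 to 80916266 (1482 bp) and 80895796 to 80897155 (1360 bp) were covered over 464, 933 and 1246 bp. The other 4 of the 5 widest S2101 peaks, at 80882901 to 80884647 (1747 bp), 80872352 to 80873631 (1280 bp), 80877949 to 80879172 (1224 bp) and 80895837 to 80896815 (979 bp), lay wholly inside vehicle peaks. Beyond the block, a stretch of 16118 bp (80898667 to 80914784) held no peak of any list.

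H3K4me3 at Nfic formed a pair of stretches in both treatments, all 4 peaks at the score of 3100. The first was 3659 bp with vehicle (80886700 to 80890358) and 4246 bp with S2101 (80886321 to 80890566), and the second 2108 bp (80892178 to 80894285) and 2128 bp (80892156 to 80894283). The block of wide H3K4me1 peaks lay on the low-coordinate side of the first one, next to it. Inside H3K4me3 the treatments differed more than outside. Of the length inside H3K4me3 of either treatment, vehicle H3K4me1 covered 2319 bp and S2101 H3K4me1 134 bp, a ratio of 0.0578. Within 5 kb of H3K4me3 the ratio was 0.712 (7656 and 5450 bp), and farther away 0.746 (13427 and 10017 bp). Over the whole lists these 3 ratios were 0.197, 0.357 and 0.366. At Nfix they were 0.646, 0.53 and 0.575, so the low value inside H3K4me3 was seen at Nfic and not at Nfix. The difference between the 2 loci was not tested.

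Of the 6 vehicle-only H3K4me1 peaks at Nfic, 3 overlapped H3K4me3. At Nfix 3 of 14 did so, and in the 4 windows together 6 of 30. No such share over the whole list was at hand, so nothing is read from these counts. The 3 vehicle-only peaks at Nfic with the highest scores were at 80889990 to 80890542 (553 bp, score 311.83), 80897636 to 80898666 (1031 bp, score 294.82) and 80886780 to 80887492 (713 bp, score 276.57). The first and the last stand at either end of the first H3K4me3 stretch. No S2101 H3K4me1 peak overlapped this stretch.

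**Figure D4:**
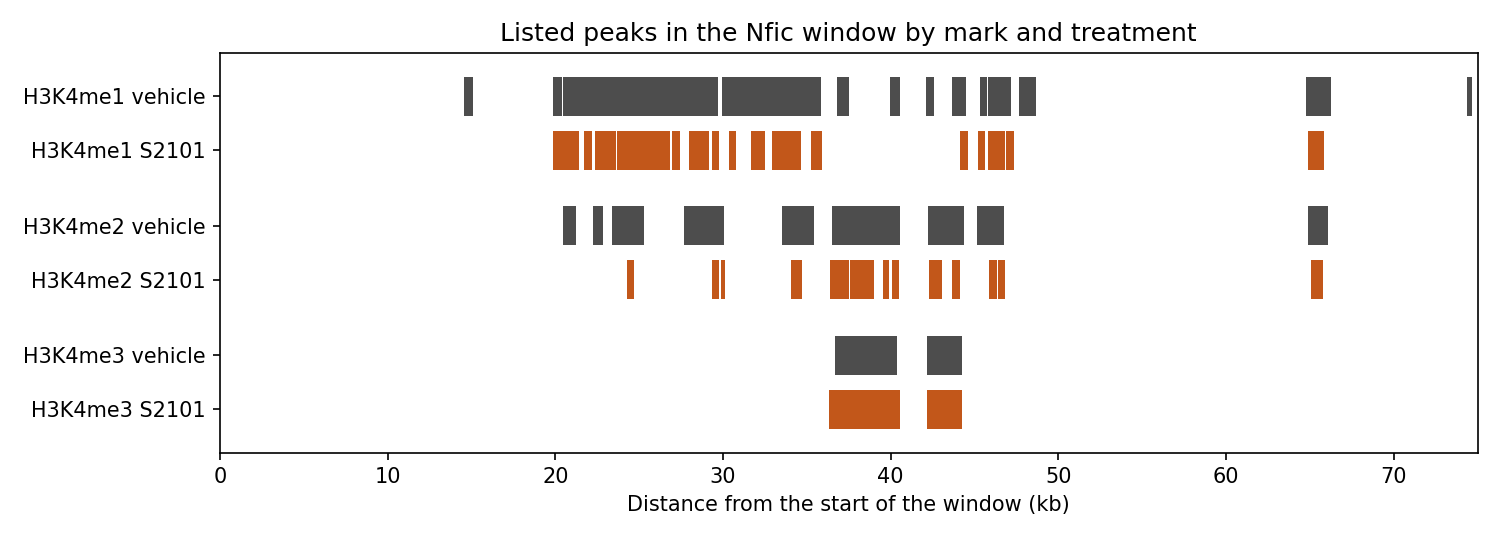
Peaks of the Nfic window drawn to scale by distance from the window's start (kb), with 1 lane per mark and treatment. The H3K4me1 run of 17.6 kb with vehicle is nearly as long with S2101, at 16.0 kb, and the pair of H3K4me3 stretches beside it holds vehicle H3K4me1 peaks and almost no S2101 ones.

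H3K4me2 at Nfic covered 16500 bp in 10 vehicle peaks and 7996 bp in 14 S2101 peaks, a ratio of 0.485. The widest vehicle peak, at 80886484 to 80890554 (4071 bp), lay on the first H3K4me3 stretch and was covered over 3241 bp with S2101, in 5 pieces. The one on the second stretch, at 80892224 to 80894348 (2125 bp), was covered over 1308 bp. Those inside the H3K4me1 block, at 80877688 to 80880035 (2348 bp) and 80883503 to 80885425 (1923 bp), were covered over 561 and 655 bp. The peak at 80895124 to 80896779 (1656 bp) was covered over 841 bp. The widest S2101 peaks were at 80886390 to 80887529 (1140 bp) and 80887911 to 80889027 (1117 bp), both on the first H3K4me3 stretch. The next 3 were at 80892263 to 80893059 (797 bp), 80915098 to 80915809 (712 bp) and 80884060 to 80884714 (655 bp).

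H3K4me2 was listed with S2101 mainly on H3K4me3, and less in the H3K4me1 blocks around it. Over the 4 windows the ratio was 0.725 inside H3K4me3 (25033 and 18161 bp), 0.237 within 5 kb of it (18371 and 4348 bp) and 0.237 farther away (18068 and 4283 bp). The whole lists gave 0.592, 0.104 and 0.17. The share of H3K4me2 length inside H3K4me3 of either treatment was 40.7% with vehicle and 67.8% with S2101 in the windows, and 72.8% and 92.3% in the whole lists. Conversely, 69.0% of the vehicle H3K4me2 length in the windows lay inside vehicle H3K4me1, where the whole list had 19.3%, and with S2101 it was 46.2% against 3.76%. These shares too reflect the choice of loci with wide H3K4me1.

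Of the 31 vehicle H3K4me2 peaks in the windows, 8 had no S2101 counterpart, and in the whole list 25.8% had none. Under a reciprocal overlap of at least 50%, 12.9% of the vehicle peaks in the windows were found again, against 26.7% of the whole list. None of the 42 S2101 peaks lacked a vehicle counterpart, against 3.94% of the whole S2101 list. All 8 vehicle-only H3K4me2 peaks overlapped H3K4me1 peaks of both treatments, and 0 of 8 overlapped H3K4me3. In the whole list 26.7% of the 5542 vehicle-only H3K4me2 peaks overlapped H3K4me1 of both treatments and 32.0% overlapped H3K4me3. As Nfix and Nfic were chosen for wide H3K4me1, the overlap with it is in part set by that choice. At Nfix they were at 87313807 to 87315312 (1506 bp, score 374.35), 87317510 to 87318554 (1045 bp, score 249.24), 87312506 to 87313661 (1156 bp, score 237.26) and 87236723 to 87237463 (741 bp, score 173.17). S2101 H3K4me1 covered 1051, 839, 1156 and 733 bp of them. At Nfic they were at 80870461 to 80871212 (752 bp), 80872264 to 80872867 (604 bp) and 80873402 to 80874081 (680 bp), all overlapping the widest vehicle H3K4me1 peak. S2101 H3K4me1 covered 745, 516 and 605 bp of these. The peak at Nfib, 82082479 to 82083466 (988 bp), had 268 bp of S2101 H3K4me1. In these places H3K4me2 was absent from the S2101 list while H3K4me1 was present in it.

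The Nfia window was nearly free of peaks, with 98.7% of its bases in none and a free run of 148171 bp from 97445411 to 97593581. Its marks stood in 2 spots at the low-coordinate end, each with H3K4me3 and H3K4me2 in both treatments. At the first, the H3K4me3 peak was 1740 bp wide (97438322 to 97440061, score 1824.59) in the vehicle list and 1879 bp wide (97438281 to 97440159, score 2192.72) in the S2101 list. At the second it was 1077 bp (97443683 to 97444759, score 364.35) and 1131 bp (97443656 to 97444786, score 569.02). The RefSeq Nfia promoter is on the plus strand, so a gene on it begins on this side, but the entry may lie in the part of the model outside the window.

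H3K4me2 at Nfia was a single vehicle peak at each spot, of 1978 bp (97438161 to 97440138) and 1954 bp (97443457 to 97445410). With S2101 each was split into 3. At the first spot the pieces were 97438461 to 97438862 (402 bp), 97439003 to 97439271 (269 bp) and 97439376 to 97439936 (561 bp). At the second they were 97443773 to 97444089 (317 bp), 97444286 to 97444644 (359 bp) and 97444867 to 97445111 (245 bp). Its covered length was 3932 bp (vehicle) and 2153 bp (S2101), a ratio of 0.548, and 0.143 with peaks of score 200 or more only, where 1 S2101 piece remained. The 3 vehicle H3K4me1 peaks were a flank of the second spot at 97444807 to 97445379 (573 bp, score 224.43) and lone peaks at 97593582 to 97593901 (320 bp, score 126.77) and 97670384 to 97670854 (471 bp, score 140.77). None was found again. A loss at this locus and the smaller number of peaks in the whole S2101 list cannot be told apart.

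The Nfib window had a strong H3K4me3 domain at its high-coordinate end. Its peak was 3979 bp wide in the vehicle list (82149102 to 82153080) and 4027 bp in the S2101 list (82149042 to 82153068), both at the score of 3100. The vehicle H3K4me2 peak there was 4652 bp wide (82148466 to 82153117, score 2760.66). With S2101 it was reduced to 3 pieces at 82150190 to 82151033 (844 bp), 82151377 to 82151767 (391 bp) and 82151795 to 82152584 (790 bp), which covered 2025 bp. No H3K4me1 peak of either treatment overlapped this domain, nor the H3K4me3 peaks at Nfia. Over the whole lists, 9.0% of the vehicle H3K4me3 length and 1.98% of the S2101 length lay inside H3K4me1 of the same treatment. The H3K4me3 stretches at Nfix did overlap H3K4me1, but Nfix was chosen for wide H3K4me1.

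A second H3K4me3 peak at Nfib was listed with S2101 only, at 82158428 to 82159578 (1151 bp, score 317.16). It was the only H3K4me3 peak of the 4 windows listed in 1 treatment: 0 of 13 vehicle peaks and 1 of 11 S2101 peaks lacked a counterpart, against 1.30% and 8.43% of the whole lists. Vehicle H3K4me2 covered 630 bp of it (peak at 82158949 to 82159703, 755 bp, score 103.33) and S2101 H3K4me2 401 bp (82159178 to 82159581, 404 bp, score 149.6). An S2101-only H3K4me1 peak (82158282 to 82158583, 302 bp, score 116.41) overlapped its edge by 156 bp. A vehicle-only H3K4me1 peak stood nearby, at 82157001 to 82157472 (472 bp, score 161.63). With this peak the H3K4me3 ratio of the Nfib window was 1.3. Of 4837 stretches of 100 kb with at least 2 kb of vehicle H3K4me3, 95.3% had a lower ratio. These stretches are shorter than the Nfib window of 230.0 kb.

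Away from these domains, Nfib held short peaks of low score. H3K4me1 was listed with vehicle at 82007550 to 82008064 (515 bp), 82008568 to 82009242 (675 bp), 82031926 to 82032321 (396 bp), 82047086 to 82047363 (278 bp), 82081073 to 82081702 (630 bp) and 82116458 to 82117141 (684 bp, score 231.18), with no S2101 counterpart. It was listed in both treatments at 82082539 to 82083006 with vehicle and 82082785 to 82083052 with S2101, and at 82110575 to 82110973 with vehicle and 82110428 to 82110868 with S2101. The second S2101-only peak was at 82115681 to 82115960 (280 bp, score 104.26), within 1 kb of a vehicle peak. H3K4me2 outside H3K4me3 was listed with both treatments at 82045861 to 82047081 (1221 bp with vehicle, of which 269 bp with S2101) and at 82081819 to 82082477 (659 bp with vehicle, of which 292 bp with S2101). In total H3K4me2 covered 8275 bp (vehicle) and 2990 bp (S2101), a ratio of 0.361. The longest stretch without any peak, 77550 bp from 81930000 to 82007549, was at the low-coordinate end.

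**Figure D5:**
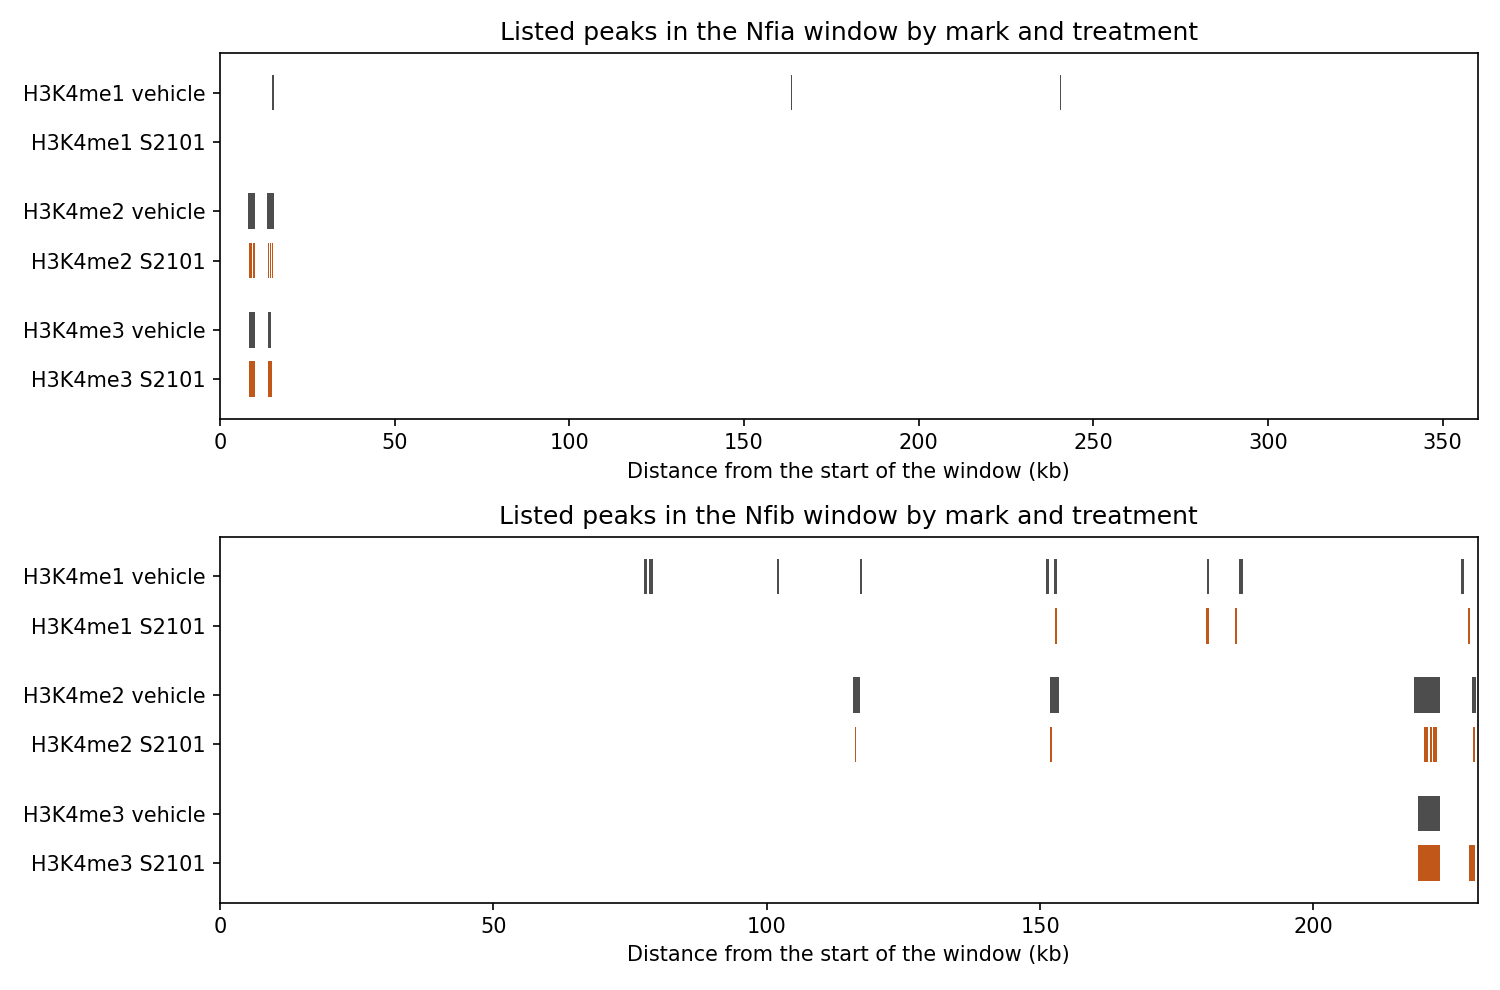
Peaks of the Nfia window (top) and the Nfib window (bottom) drawn to scale by distance from the window's start (kb), with 1 lane per mark and treatment. Marks at Nfia stand in 2 spots at the window's start apart from 2 lone vehicle H3K4me1 peaks, and at Nfib the H3K4me3 domain is near the window's end, followed by a peak listed with S2101 only.

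The rule for choosing the genes named H3K4me1 and not H3K4me2 or H3K4me3, but these marks overlapped H3K4me1 there. Of the vehicle H3K4me2 length, 89.1% at Nfix and 73.6% at Nfic lay inside vehicle H3K4me1, against 19.3% over the whole lists. For vehicle H3K4me3 these shares were 67.9%, 36.6% and 9.0%. The values at Nfix and Nfic are therefore not free of that choice. Most ratios of H3K4me2 and H3K4me3 lay between the quartiles of other places. For H3K4me2 the median ratio over 5951 stretches of 100 kb with at least 2 kb of vehicle H3K4me2 was 0.484 (quartiles 0.369 and 0.587). The values of 0.417 at Nfix, 0.485 at Nfic and 0.548 at Nfia lie between these quartiles, and the 0.361 of Nfib lies just under them. For H3K4me3 the median was 1.06 (quartiles 1.01 and 1.12), and Nfix (1.09), Nfic (1.11) and Nfia (1.07) lie between them, while Nfib (1.3) lies above them. The order of H3K4me3 length, Nfix, Nfic, Nfib and Nfia, was the same in both treatments, as was that of H3K4me2.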

How the data were processed

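ChIP-seq peaks were called with MACS in Galaxy, per the file headers. The submitters' processing notes name Bowtie2, deepTools and the build mm9. Caller settings, control libraries and read numbers were not given in the sources used here. Each peak has the score the authors deposited, and most H3K4me3 scores stand at 3100. A library with fewer reads or weaker enrichment can give fewer, narrower or more broken peaks. Inputs and H3 libraries were not analysed here.

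The genes, windows and lists were chosen with earlier results of these data known. Covered length counts each base once and stops at the window's edge. Named are every H3K4me3 peak and, for the other marks, every peak where a list has 6 or fewer in a window, otherwise the 5 widest, the 3 highest-scoring of 1 treatment only, and the widest peak-free run. Runs of joined peaks, zones around H3K4me3 and overlaps between marks are descriptions. The interval functions gave the values of bedtools 2.31.1 in 6 of 6 checks on simulated lists. There is no test between treatments. Wilson intervals (95%) were computed with scipy 1.17.1 under Python 3.11.15; tables used numpy 2.4.6 and pandas 2.3.3, and figures matplotlib 3.10.9. Alternatives were scores of 200 or more, lists of equal length, whole peaks, windows 20 kb longer on each side, a reciprocal overlap of 50% and peaks within 1 kb.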

Additional observations from a re-analysis of the deposited data

How the results depend on the processing

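Every covered-length ratio, for the 4 windows together and for each window, stayed on the same side of 1 under all alternatives. The size did not always hold. For H3K4me1 at Nfib the ratio was 0.286 as reported and 0.982 with lists of equal length (1314 and 1291 bp). Nfia had no S2101 H3K4me1 peak under any setting, so its ratio stayed at 0.0. For the 4 windows together the H3K4me1 ratio was 0.569, and it was 0.568 with scores of 200 or more, 0.633 with lists of equal length and 0.541 with windows extended by 20 kb. The H3K4me2 ratio was 0.436, and under the same 3 settings 0.359, 0.415 and 0.463. The H3K4me3 ratio was 1.13, and 1.19 with scores of 200 or more. With that score cut the whole lists gave 0.227 for H3K4me1, 0.417 for H3K4me2 and 1.1 for H3K4me3. As scores rank peaks within a list only, 1 cut need not mean the same in both lists. Counting whole peaks could change none of the 3 ratios of the windows, since no peak crossed a window's edge. When both peaks of a pair had to share at least 50% of their bases, the share of vehicle peaks found again was 25.4% for H3K4me1, 12.9% for H3K4me2 and 69.2% for H3K4me3, instead of 55.2%, 74.2% and 100%. The whole lists had 15.5%, 26.7% and 93.8% under that rule, so the windows were below the list for H3K4me2 and H3K4me3. For H3K4me2 this rests on 4 of 31 vehicle peaks found again. For H3K4me3 the peaks not found again were the 4 vehicle pieces of the widest Nfix stretch. These lie wholly inside 1 S2101 peak of 5233 bp, so their bases are shared. For H3K4me1 the share found again was 71.6% within 1 kb and 73.9% with lists of equal length, where the whole list had 49.1% and 48.9%. For single windows, 23 of 48 ratios moved, which means any change in the rounded value, and none crossed 1. Of 48 shares, 12 moved, which means that they fell outside the Wilson interval of the share as reported. A share has no such side to change, so a reversal could not be seen for shares. With 1 library per mark and treatment and no read counts, no part of a difference can be assigned to the treatment, and the Nfia and Nfib H3K4me1 values rest on few peaks of low score. No paired analysis was possible because each mark and treatment has a single library.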
